A study of Mus musculus with 12 samples.

Results

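The chemokine receptors of tissue homing are taken here as 9 genes: Ccr2, Ccr4, Ccr6, Ccr8, Ccr9, Ccr10, Cxcr3, Cxcr4 and Cxcr5. They were listed by symbol as a family, not by a threshold on their values, although earlier results of these data were known, and all 9 were found among the 26609 genes of the deposited count table and in the deposited log2 table. All 9 also passed the filter on low counts that left 13692 genes for testing, although Ccr10 passed it only through libraries labelled KO. RNA was sequenced from regulatory T cells (Tregs), the CD4+ T cells that restrain immune responses, sorted as single CD4+CD25hiCD127lo cells from mesenteric lymph nodes, the nodes that drain the intestine. The mice were of the SAMP/YitFC strain, inbred mice in which ileitis arises spontaneously. The study crossed sex with global loss of Esr2, the gene of estrogen receptor beta, so its comparisons ask what that receptor changes in the Tregs of either sex.

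There were 4 groups of 3 libraries. KO female and KO male libraries were labelled SAMP/YitFC-ERb-KO, and WT female and WT male libraries SAMP/YitFC-WT. No mouse received a treatment, and their age is not given in the sources. Every mouse shares the ileitis-prone background, so no group represents a healthy intestine. Nothing in the labels ties a library to a mouse of its own, and p-values therefore measure the spread between these samples, which may be technical.

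Chemokine receptors are membrane proteins that signal through inhibitory G proteins when they bind small secreted chemokines, and the cell then moves up the chemokine gradient. Which receptors a T cell carries decides which tissues it can enter: Ccr9 directs cells to the small intestine, Ccr4, Ccr8 and Ccr10 to skin and other barrier tissues, Ccr2 and Cxcr3 to inflamed sites, and Cxcr5 to B-cell follicles. Tregs use the same receptors to reach the places where they act. In bulk RNA such as this, fewer cells that carry a receptor and less receptor RNA per cell cannot be told apart.

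Libraries labelled KO held 10.2 to 14.8 M counts (M, mega) and those labelled WT 13.4 to 16.7 M counts, and the markers of the sort were present in all of them. Foxp3, the lineage factor of Tregs, ranged from 583 to 926 CPM (counts scaled to library size), and Il2ra, which encodes CD25, from 521 to 1007 CPM. Il7r, which encodes CD127, ranged from 143 to 252 CPM. Esr2 did not follow the genotype labels: it had 161, 94 and 128 counts in libraries labelled KO female, against 0, 133 and 159 in WT female, and 8, 2 and 95 counts in KO male, against 0, 1 and 14 in WT male. Which exons the knockout removes is not stated in the labels. Xist and Y-linked counts went against the titled sex in 4 libraries, namely KO female 1, WT female 2, KO male 1 and KO male 2. Genotype and sex below therefore name what a library was labelled, and the genotype differences of the receptors and of Cdc42, Rap1a, Rgs1, Prdm1 and S1pr1 are also given without those 4 libraries.

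Levels of the 9 receptors were compared with each other per kilobase of the principal transcript of each gene. Ccr8, Ccr6 and Cxcr3 stood highest, with means of 158 ± 44.1, 107 ± 32.0 and 79.6 ± 13.6 CPM per kb over the 12 libraries (SD). Cxcr5 and Ccr4 followed at 26.6 ± 3.39 and 26.5 ± 6.28 CPM per kb, then Ccr2 at 19.6 ± 6.57, Ccr9 at 9.24 ± 1.89 and Cxcr4 at 5.53 ± 2.76 CPM per kb. Ccr10 was close to absent, at 0.299 ± 0.381 CPM per kb. Cxcr5 was above Ccr4 in 6 of 12 libraries, so their order was not resolved, while each other receptor was above the next in 11 or 12 of 12 libraries. With the length of all exons in place of the principal transcript, Ccr4 stood above Cxcr5 and Cxcr4 above Ccr9.

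**Figure D1:**
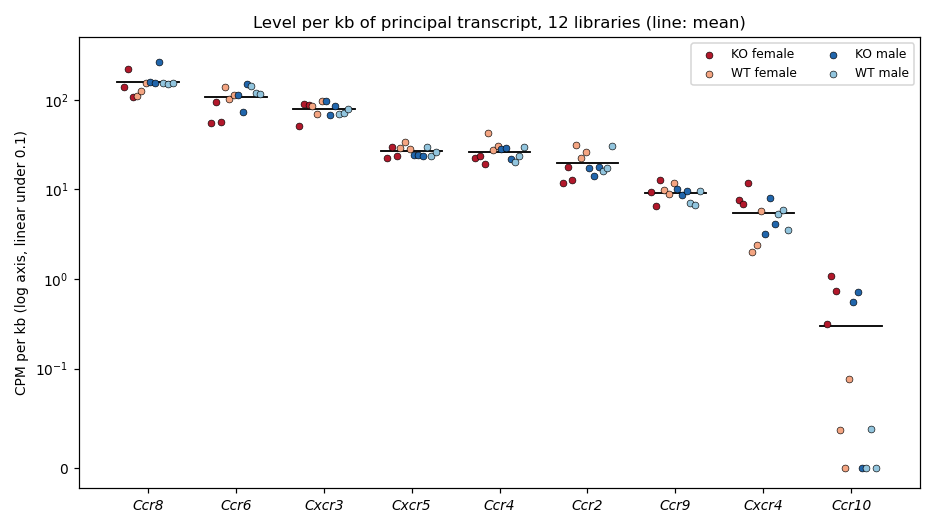
Level of each receptor in CPM per kb of its principal transcript (log axis, linear under 0.1), with a point for each of the 12 libraries coloured by labelled group and a line at the mean. Ccr8 averaged 158 and Ccr10 0.299 CPM per kb, and Cxcr5 and Ccr4 lay at the same height.

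Libraries labelled KO female held less Ccr2, Ccr4 and Ccr6 RNA and more Cxcr4 RNA than every library labelled WT female, but none of these differences passed the test across all genes. Including Ccr10, 5 of the 9 receptors did not overlap between those 2 groups, 3 lower and 2 higher. Over all tested genes 21.0% did not overlap, 11.8% lower and 9.20% higher. Ccr10, among the 2 higher, passed the filter only through KO libraries, so its place in this count was favoured by that filter. By edgeR's quasi-likelihood test with Benjamini-Hochberg adjustment over all genes, 0 of the 9 were called in females at 0.05, as were 0% of all genes. At an unadjusted p under 0.05 there were 5 of the 9, with Ccr10 again among them, and 7.71% of all genes. DESeq2 called 0 of the 9, beside 22 of 13681 genes. With limma voom with quality weights 6 of the 9 were called, beside 1698 of 13692 genes. Without the filter on low counts edgeR called 3, beside 132 of 24584 genes. In males no receptor was without overlap between KO and WT, where 14.4% of all genes were, and 0 were called, beside 0.0730% of all genes. At an unadjusted p under 0.05 there was 1 receptor in males, Ccr10, beside 14.2% of all genes.

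Averaged over the sexes, a comparison that uses the same libraries as both of these, 1 of the 9 receptors was called, beside 1.50% of all genes. That receptor, Ccr10, passed the filter only through KO libraries, so its call supports nothing about the family. At an unadjusted p under 0.05 there were 4 of the 9, Ccr2, Ccr6, Ccr10 and Cxcr4, beside 15.9% of all genes. The median log2 fold change of the 9 was 0.01, and over all tested genes it was 0.02. In females the median of the 9 was -0.15, beside 0.01 for all genes, and in males it was 0.10, beside 0.01. None of the 9 was called for female minus male in KO, for female minus male in WT or for the interaction of genotype and sex, and 0% of all genes were called there. At an unadjusted p under 0.05 these 3 comparisons held 1 receptor each, namely Ccr6, Ccr4 and Ccr4, beside 5.27%, 6.52% and 4.81% of all genes.

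**Figure D2:**
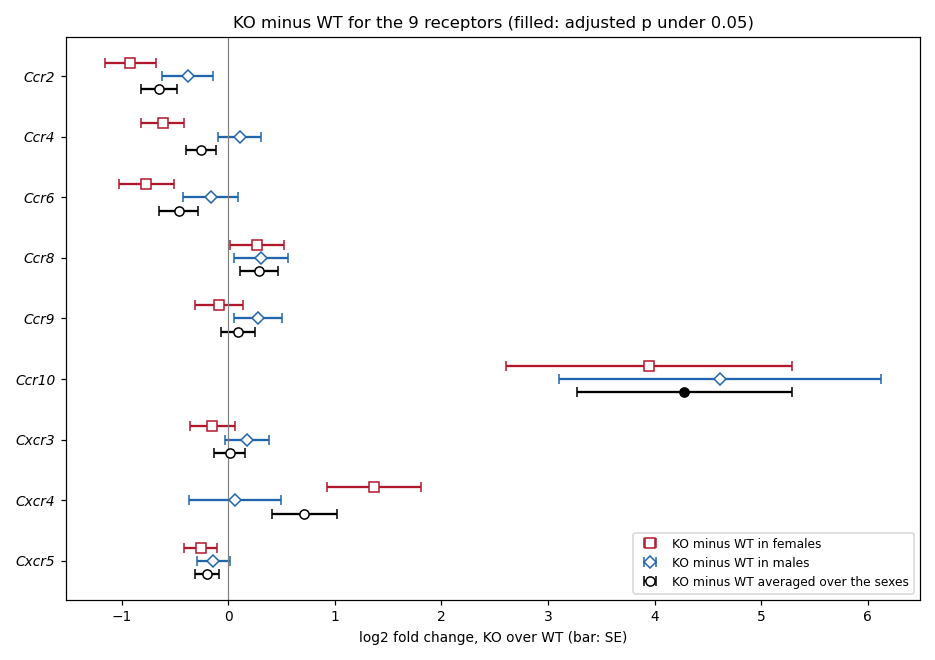
Log2 fold change, KO over WT, of the 9 receptors in females (squares), in males (diamonds) and averaged over the sexes (circles), with bars of 1 SE, and filled where the adjusted p was under 0.05. Ccr2, Ccr4 and Ccr6 lie left of 0 and Cxcr4 right of 0 in females, and the only filled symbol is the average of Ccr10 at 4.28.

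The regions before the start sites of the 4 receptors with more than a few counts whose KO and WT females did not overlap are shown because 3 of them were low together and the fourth was high. For Ccr6 the window at the start of the gene is shown, and a second RefSeq window (chr17:8242276-8242575, plus strand), which held none of the motifs searched, is not. For Ccr4 the window lies inside the annotated gene (chr9:114490316-114504916, minus strand), at an internal start. The Ccr2 window also lies at an internal start, inside the RefSeq gene (chr9:124101918-124109140, plus strand). Each window runs 5′ to 3′ from 250 bases before to 50 bases after an annotated start, from RefSeq on GRCm38.p6. That assembly is the reference strain, not SAMP/YitFC.
Ccr2, chr9:124101933-124102232, plus strand: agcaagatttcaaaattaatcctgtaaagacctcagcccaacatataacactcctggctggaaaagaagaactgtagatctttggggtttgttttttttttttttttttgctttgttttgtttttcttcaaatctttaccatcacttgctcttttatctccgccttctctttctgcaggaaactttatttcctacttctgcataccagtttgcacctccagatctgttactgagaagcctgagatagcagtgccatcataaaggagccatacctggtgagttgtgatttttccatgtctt
Ccr4, chr9:114496495-114496794, minus strand: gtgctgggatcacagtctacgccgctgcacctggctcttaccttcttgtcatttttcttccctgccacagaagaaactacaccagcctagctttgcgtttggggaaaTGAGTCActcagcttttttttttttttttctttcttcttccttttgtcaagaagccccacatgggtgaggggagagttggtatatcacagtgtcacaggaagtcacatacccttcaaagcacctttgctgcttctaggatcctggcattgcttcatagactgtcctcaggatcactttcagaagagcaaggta
Ccr6, chr17:8235793-8236092, plus strand: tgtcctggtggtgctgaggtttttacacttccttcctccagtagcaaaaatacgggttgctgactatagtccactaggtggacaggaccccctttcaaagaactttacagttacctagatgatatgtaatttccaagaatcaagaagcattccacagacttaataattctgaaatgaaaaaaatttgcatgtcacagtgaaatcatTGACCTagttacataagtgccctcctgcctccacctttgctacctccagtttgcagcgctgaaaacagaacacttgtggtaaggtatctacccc
Cxcr4, chr1:128592250-128592549, minus strand: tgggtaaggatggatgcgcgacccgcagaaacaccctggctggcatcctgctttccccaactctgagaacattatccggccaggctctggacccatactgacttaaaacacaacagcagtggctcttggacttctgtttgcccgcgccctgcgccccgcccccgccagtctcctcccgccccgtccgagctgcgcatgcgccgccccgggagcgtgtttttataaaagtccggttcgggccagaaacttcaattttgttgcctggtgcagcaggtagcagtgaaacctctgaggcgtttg
Capitals mark matches to the motifs searched on both strands, which were the palindromic estrogen response element GGTCANNNTGACC, its single arm AGGTCA and the AP-1 element TGACTCA. The full element was in 0 of the 8 windows available for 7 of the receptors, and 0.07% of the 32851 RefSeq promoter windows of this length held it. The single arm was found in 1 window, 44 bases before a start of Ccr6, and 16.3% of all windows held it. The AP-1 element was found in 1 window, 143 bases before the internal start of Ccr4, and 5.2% of all windows held it. The arm shares 5 of its 6 letters with each side of the full element, so these searches overlap.

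Among the receptors of the intestine and other mucosal surfaces, Ccr6 is the receptor for Ccl20 and is carried by T cells of gut-associated lymphoid tissue (chr17:8236043-8257141, plus strand, GENCODE M21 on GRCm38). It had 97.8, 168 and 98.4 CPM in KO female libraries, against 244, 177 and 199 CPM in WT female libraries. In males it had 201, 127 and 266 CPM in KO libraries, against 253, 209 and 205 CPM in WT libraries. All 3 KO females lay below all WT females, whereas the KO males spanned the WT males. The log2 fold change was -0.77 in females (SE 0.26, adjusted p = 0.499 by edgeR) and -0.17 in males (SE 0.26, adjusted p = 0.815). Averaged over the sexes it was -0.47 (SE 0.18, adjusted p = 0.218 by edgeR). Without the 4 libraries against their titled sex the female value was -0.73 (adjusted p = 0.776 by edgeR) and the male value was 0.26 (adjusted p = 0.612). Within KO, female minus male was -0.70 (SE 0.26, unadjusted p = 0.0158 and adjusted p = 0.849 by edgeR), and 2 of 3 KO females were below all KO males.

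Ccr9, the receptor for Ccl25 that brings lymphocytes to the small intestine, showed no such separation (chr9:123678439-123784330, plus strand). It had 48.2, 34.3 and 66.8 CPM in KO females, against 51.3, 46.7 and 60.6 CPM in WT females. It had 52.5, 44.5 and 49.9 CPM in KO males, against 36.8, 34.6 and 50.0 CPM in WT males. The groups overlapped in both sexes, with log2 fold changes of -0.09 in females (SE 0.23, adjusted p = 0.951 by edgeR) and 0.28 in males (SE 0.23, adjusted p = 0.613). The 95% interval of the average, from -0.22 to 0.41, included 0. Without the 4 libraries against their titled sex the female value was -0.15 and the male value 0.30 (adjusted p = 0.941 and 0.635 by edgeR). Exons annotated to Ccr9 overlap exons of neighbouring genes over up to 1932 bases, and the kit does not mark the strand, so some of these reads may belong to either gene. Ccr9 is also a marker of plasmacytoid dendritic cells, and the summed level of 7 other markers of those cells was 226 ± 32.0 CPM in KO and 171 ± 22.4 CPM in WT (SD, n = 6 each). Most of that sum came from Irf8 and Bst2, at 119 and 57.4 CPM on average over the 12 libraries. Siglech, another of the 7, ranged from 0.582 to 6.34 CPM in KO and from 0.320 to 6.95 CPM in WT. Of the list with Ccr9, 6 genes were tested and 0 were called averaged over the sexes. The part of those cells in the Ccr9 level was not tested.

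Ccr10, the receptor for Ccl27 and Ccl28, is known from skin T cells and from the antibody-secreting plasma cells of mucosal tissues (chr11:101172997-101175443, minus strand). It had 8, 22 and 14 counts in KO females, against 1, 0 and 2 counts in WT females, and 12, 17 and 0 counts in KO males, against 0, 1 and 0 counts in WT males. A library with 0 counts allows up to 3 counts, which is 0.175 to 0.291 CPM at these depths. The KO females were all above the WT females, and KO male 3 alone among the KO libraries had none. Ccr10 was higher than every WT library in 5 of 6 KO libraries, with a fitted log2 fold change of 4.28 averaged over the sexes (SE 1.01, adjusted p = 0.0497 by edgeR). The gene was among those tested only because of its counts in KO, so that p is given as a description. Without the filter on low counts the adjusted p was 0.00541 by edgeR. That fit called 627 genes averaged over the sexes, beside 206 with the filter, so this p is also given only as a description.

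The summed counts of Ccr10 were 73 in KO and 4 in WT, a ratio of library-scaled counts of 22.2 with an exact 95% interval of 8.33 to 83.8 that covers counting error only. The ratio was 16.8 in females (5.40 to 84.8) and 37.5 in males (6.21 to 1530), with 3 and 1 WT counts. The call was lost in 17 of 20 alternative settings, among them the loss of any single library other than KO male 3, where adjusted p by edgeR ranged from 0.0536 to 0.123. Without the 4 libraries against their titled sex the log2 fold change was 3.75 in females, -1.73 in males and 1.01 on average. The only KO male left was then the library without a Ccr10 count.

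Some transcripts of antibody-secreting cells and most of a list of B-cell genes were higher in KO as well. Igj, the joining chain of secreted antibodies, had 23.2, 285 and 101 CPM in KO females and 238, 64.0 and 231 CPM in KO males, against 34.9, 4.89 and 9.75 CPM in WT females and 8.20, 13.0 and 0.767 CPM in WT males. In 5 of 6 KO libraries it was above every WT library, and KO female 1 was below WT female 1 (average log2 fold change 3.82, SE 0.86, adjusted p = 0.0668 by edgeR). 2010001M09Rik, an older symbol of a plasma cell transcript, rose in KO with a log2 fold change of 4.35 (SE 0.67, adjusted p = 0.0131 by edgeR), and all KO libraries were above all WT libraries. Over a list of 9 plasma cell genes, which was chosen after values were seen, the summed level ranged from 557 to 846 CPM in KO and from 469 to 558 CPM in WT. Most of that sum came from Xbp1, at 386 CPM on average over the 12 libraries. Sdc1, another gene of this list, ranged from 1.42 to 8.64 CPM in KO and from 0.965 to 3.94 CPM in WT. Of its 8 tested genes 1 was called higher and 0 lower, and the log2 fold changes of Xbp1, Tnfrsf13b and Irf4, at 0.04, 0.14 and -0.20, were not called. In the sum 2 of the 9 genes, 2010001M09Rik and Tnfrsf17, had a library at 0. The sum of 9 B-cell genes, led by Cd79b, Cd22 and Cd79a, ranged from 138 to 311 CPM in KO and from 38.5 to 182 CPM in WT, with 6 of 9 called higher. KO male 3, without Ccr10, had 231 CPM of Igj and a B-cell sum of 262 CPM. The part of other cells in the Ccr10 result was not tested.

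**Figure D3:**
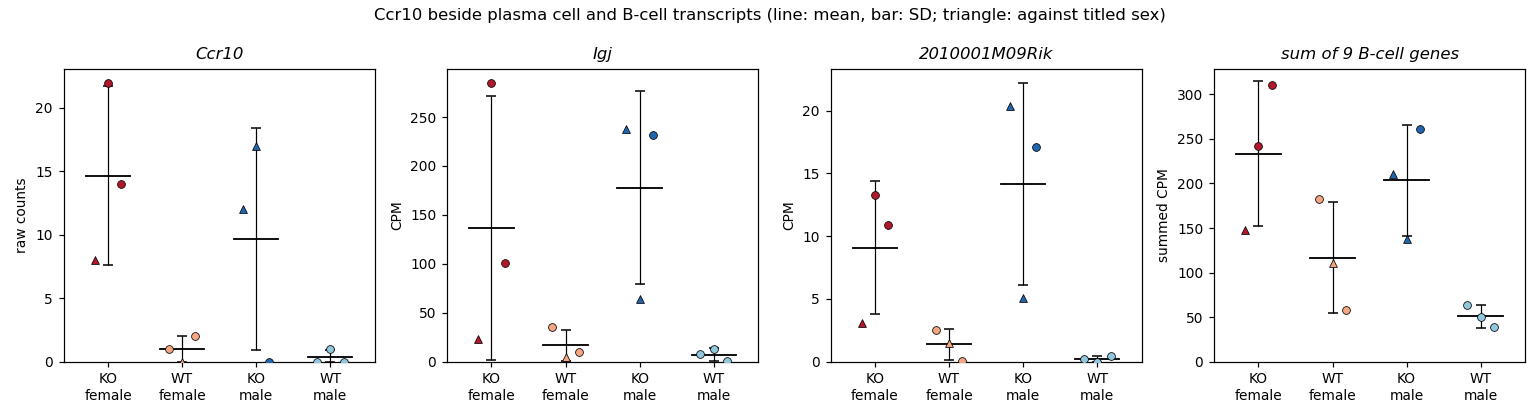
Raw counts of Ccr10, CPM of the plasma cell transcripts Igj and 2010001M09Rik, and summed CPM of 9 B-cell genes in each library (triangles: against the titled sex), with mean and SD, cut at 0. Ccr10 reached 22 counts in KO and 2 in WT libraries, and the B-cell sum reached 311 CPM in KO and 182 CPM in WT libraries.

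Among the receptors of skin and other barrier tissues, Ccr4 binds Ccl17 and Ccl22, which dendritic cells make in quantity (chr9:114490316-114504916, minus strand). It had 63.0, 66.4 and 54.1 CPM in KO females, against 119, 76.9 and 84.9 CPM in WT females. It had 79.6, 80.4 and 61.5 CPM in KO males, against 56.3, 67.0 and 82.8 CPM in WT males. The KO females were below the WT females without overlap, and the males overlapped. The log2 fold change was -0.62 in females (SE 0.20, adjusted p = 0.499 by edgeR) and 0.10 in males (SE 0.20, adjusted p = 0.850). Their difference, the interaction, was -0.72 (SE 0.28, unadjusted p = 0.0224 and adjusted p = 0.900 by edgeR). Without the 4 libraries against their titled sex the female value was -0.76 and the male value was -0.16 (adjusted p = 0.776 and 0.772 by edgeR). Within WT, female minus male was 0.45 (SE 0.20, unadjusted p = 0.0407 and adjusted p = 0.718 by edgeR).

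Ccr8, the receptor for Ccl1 and a mark of Tregs that live in tissues, was the highest of the 9 per kilobase (chr9:120092114-120094906, plus strand). It had 162, 262 and 126 CPM in KO females, against 131, 147 and 179.7 CPM in WT females. It had 185, 180.3 and 308 CPM in KO males, against 182, 178 and 182 CPM in WT males. The KO libraries lay both above and below the WT libraries and were more spread, with coefficients of variation of 33.2% in KO and 13.3% in WT. KO over WT gave a log2 fold change of 0.27 in females (SE 0.25, adjusted p = 0.843 by edgeR), 0.31 in males (SE 0.25, adjusted p = 0.611) and 0.29 on average (SE 0.18, adjusted p = 0.466). When the 4 libraries against their titled sex were left out, the male value was 0.77 and the average 0.54. The only KO male left was then KO male 3, the highest of the 12 libraries for Ccr8.

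Of the receptors for inflamed sites, Ccr2 binds Ccl2 and related chemokines and is best known from monocytes (chr9:124101950-124113557, plus strand). It had 67.3, 101 and 73.0 CPM in KO females, against 179, 129 and 149 CPM in WT females. It had 101, 80.4 and 101 CPM in KO males, against 91.6, 100.1 and 176 CPM in WT males. Every KO female was below every WT female, while in males WT male 3 stood above the other 5 libraries, which lay within 80.4 to 101 CPM. The log2 fold change was -0.92 in females, with SE 0.24, unadjusted p = 0.00171 and adjusted p = 0.459 by edgeR. In males it was -0.38 (SE 0.24, adjusted p = 0.494), and the difference between the sexes was -0.54 (SE 0.34, adjusted p = 0.900 by edgeR).

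Averaged over the sexes, Ccr2 was -0.65 on the log2 scale, with SE 0.17 and adjusted p = 0.0673 by edgeR. The sign was the same in 20 of 20 alternative settings and the threshold was passed in 5, with adjusted p from 0.000520 to 0.223. Those were DESeq2 (adjusted p = 0.0143), no filter on low counts (0.000520), voom (0.0229), and the fits without WT male 1 (0.0480) or KO female 2 (0.0457). Leaving out the 4 libraries against their titled sex gave -0.59 on average and -0.91 in females (adjusted p = 0.223 and 0.776 by edgeR). The sum of 9 monocyte and macrophage genes, led by Lyz2, Csf1r and Ly6c2, was 254 ± 89.9 CPM in KO and 122 ± 132 CPM in WT (SD, n = 6 each). In females, where Ccr2 was without overlap, that sum overlapped, at 184, 199.96 and 372 CPM in KO and 302, 279.8 and 38.5 CPM in WT. In males it was 149.8 to 339 CPM in KO and 20.3 to 49.9 CPM in WT. Its part in the Ccr2 result was not tested. None of its 3 leading genes was at 0 in any library.

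Cxcr3, the receptor for Cxcl9 and Cxcl10 on T cells that enter type 1 inflammation, did not differ beyond the spread (chrX:101731535-101734269, minus strand). It had 89.3, 157 and 151 CPM in KO females, against 149.7, 121 and 170.1 CPM in WT females. In males it ranged from 118 to 167 CPM in KO and from 121 to 137 CPM in WT, and the groups overlapped in both sexes. Its log2 fold change was -0.15 in females (SE 0.21, adjusted p = 0.899 by edgeR), 0.18 in males (SE 0.21, adjusted p = 0.750) and 0.01 on average (95% interval -0.28 to 0.30). With the 4 libraries against their titled sex left out these were -0.06, 0.20 and 0.07 (adjusted p = 0.960, 0.558 and 0.799 by edgeR).

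Of the receptors of lymphoid organs, Cxcr4 binds Cxcl12 and holds cells in bone marrow and lymphoid tissue (chr1:128588199-128592293, minus strand). It had 13.6, 12.5 and 21.1 CPM in KO females, against 3.61, 4.30 and 10.5 CPM in WT females. It had 5.82, 14.3 and 7.47 CPM in KO males, against 9.54, 10.7 and 6.33 CPM in WT males. The KO females were all above the WT females, KO female 3 highest of the 12 libraries, and the males overlapped. The log2 fold change was 1.37 in females (SE 0.44, adjusted p = 0.499 by edgeR) and 0.06 in males (SE 0.43, adjusted p = 0.963). Their difference was 1.30 (SE 0.61, unadjusted p = 0.0503 and adjusted p = 0.900 by edgeR), and the average was 0.71 (SE 0.31, adjusted p = 0.266). Without the 4 libraries against their titled sex the female value was 1.26, the male value -0.24 and the average 0.51, with KO male 3 the only KO male left. The sign of the male value was kept in 14 of 20 alternative settings.

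Cxcr5, the receptor for Cxcl13 that marks follicular T cells and B cells, had the smallest biological coefficient of variation of the 9 in the edgeR fit (chr9:44511787-44561877, minus strand). It had 64.1, 84.4 and 68.0 CPM in KO females, against 81.9, 95.9 and 81.0 CPM in WT females. It had 69.8, 68.4 and 67.6 CPM in KO males, against 84.2, 68.0 and 74.9 CPM in WT males. KO female 2 stood with the WT females and the other KO libraries lay between 64.1 and 69.8 CPM. Cxcr5 had a log2 fold change of -0.26 in females (SE 0.16, adjusted p = 0.745 by edgeR), -0.14 in males (SE 0.16, adjusted p = 0.723) and -0.20 on average (SE 0.11, adjusted p = 0.401). In the 8 libraries that followed their titled sex these were -0.10, -0.16 and -0.13 (adjusted p = 0.939, 0.697 and 0.681 by edgeR). B cells also carry Cxcr5, Cxcr4 and Ccr6, and in females the B-cell sum was 148 to 311 CPM in KO and 58.0 to 182 CPM in WT. In males the sum was 138 to 262 CPM in KO and 38.5 to 63.5 CPM in WT. Its part in these 3 receptors was not tested. Exons of Cxcr5 share 110 bases with Bcl9l on the other strand, whose reads the unstranded kit cannot separate.

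**Figure D4:**
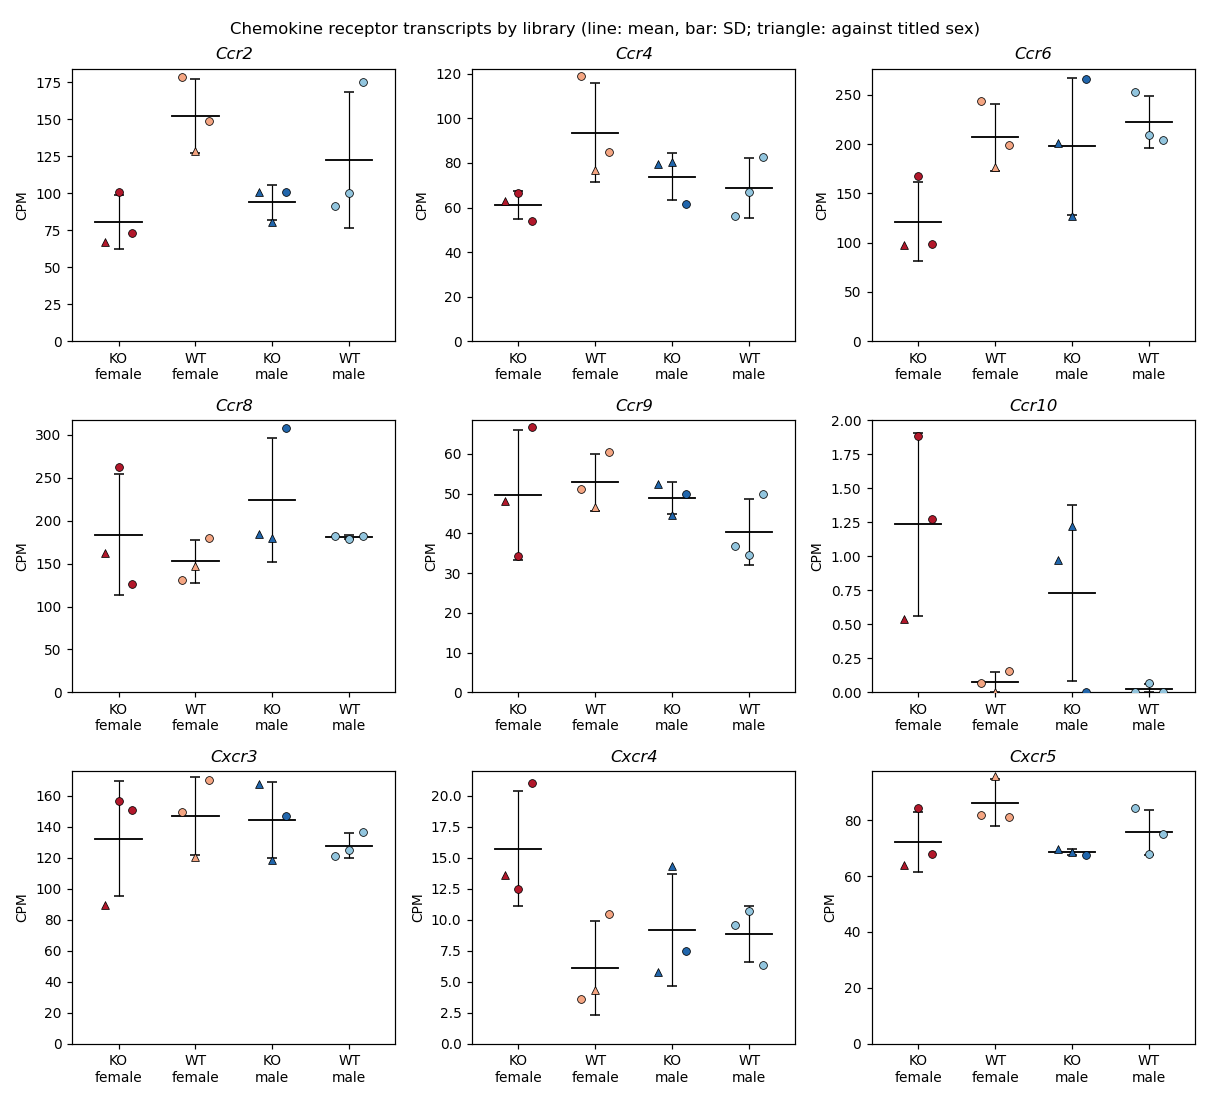
CPM of each receptor in the 12 libraries by labelled group, with the mean (line) and SD (bar, cut at 0), and triangles for the 4 libraries against their titled sex. In Ccr2, Ccr4 and Ccr6 the KO females lie below the WT females, in Cxcr4 and Ccr10 above them, and in the 4 other panels these groups overlap.

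The spread between libraries of a group differed between the receptors. The biological coefficient of variation fitted by edgeR was 15.0% for Cxcr5, between 18.4% and 22.8% for Ccr2, Ccr4, Ccr6, Ccr8, Ccr9 and Cxcr3, 37.1% for Cxcr4 and 79.3% for Ccr10, beside 29.3% in common over all genes. KO female 1 was lowest of the 12 libraries for 4 of the 9 receptors, and the summed CPM of the 9 was lowest there, at 607 CPM, beside 660 to 1008 CPM in the other libraries. The genes whose levels were most like each receptor were found by Pearson correlation over the 12 libraries. They were the highest of 9162 genes of at least 5 CPM on average (9163 for Ccr10), a choice that itself favours a high r. Without the 2 libraries farthest from each receptor's median, r of these genes ranged from 0.59 (Ahr with Ccr4) to 0.93 (Zfml with Ccr2). The points share their library and its depth, and no p is given. Ccr2 ran with Zfml (r = 0.94, rho = 0.95), Aebp2 (r = 0.93, rho = 0.87) and Rif1 (r = 0.92, rho = 0.94), and Ccr6 with Bicd1 (r = 0.92, rho = 0.89), Osbpl3 (r = 0.92, rho = 0.69) and Cd28 (r = 0.92, rho = 0.81). Ccr8 ran with Ypel2 (r = 0.92, rho = 0.82), Gpr83 (r = 0.91, rho = 0.72) and Taz (r = 0.89, rho = 0.83). Ccr4 ran with Rab3d (r = 0.82, rho = 0.69), Adam12 (r = 0.81, rho = 0.90) and Ahr (r = 0.81, rho = 0.69).

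For the other 5 receptors the likeness was of the same size. Ccr9 ran with Dopey1 (r = 0.87, rho = 0.83), Myst3 (r = 0.86, rho = 0.83) and Slc29a3 (r = 0.83, rho = 0.67). Ccr10, with many libraries at or near 0, ran with Zdhhc16 (r = 0.89, rho = 0.94), Acvrl1 (r = 0.88, rho = 0.82) and Spsb3 (r = 0.88, rho = 0.79). Cxcr3 ran with Med13 (r = 0.85, rho = 0.87), Irf2 (r = 0.85, rho = 0.83) and Aplp1 (r = 0.81, rho = 0.82). Cxcr4 ran with Tsc22d3 (r = 0.86, rho = 0.85), Abtb1 (r = 0.86, rho = 0.91) and Ogfr (r = 0.86, rho = 0.83), and Cxcr5 with Gng2 (r = 0.86, rho = 0.85), Cry1 (r = 0.85, rho = 0.89) and Wdr89 (r = 0.84, rho = 0.92).

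The chemokines that bind these receptors averaged at most 17.2 CPM each in the sorted cells. Of 16 listed ligands 10 were tested, and 0 were called in any of the 6 comparisons. Averaged over the sexes 2 of the 10 had an unadjusted p under 0.05, both higher, a share close to the 15.9% of all genes, and the median log2 fold change of the 10 was 0.31, beside 0.02 over all genes. Those 2 were Cxcl13, the ligand of Cxcr5, at 3.86 (SE 1.06, adjusted p = 0.0829 by edgeR), and Cxcl9, a ligand of Cxcr3, at 2.76 (SE 0.88, adjusted p = 0.139). Reads scaled to library size but not to transcript length were most numerous for Ccl20, the ligand of Ccr6, at 17.2 CPM, Cxcl10 at 7.78 CPM and Ccl25, the ligand of Ccr9, at 5.35 CPM on average.

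Of 19 other chemokine, atypical and exit receptors, 14 were tested and 0 were called in any comparison, with a median of 0.05 averaged over the sexes. By CPM, which is not scaled to length, most reads came from Ccr7, which brings T cells into lymph nodes, at 834 CPM, S1pr1, which lets them leave into lymph, at 322 CPM, and Gpr183 at 259 CPM. S1pr1 had 331, 314 and 383 CPM in KO females and 462, 299.7 and 484 CPM in KO males, against 259, 279 and 252 CPM in WT females and 283, 266 and 256 CPM in WT males. All KO libraries were above all WT libraries, as for 0.971% of all genes. The log2 fold change was 0.51 (SE 0.12, adjusted p = 0.0528 by edgeR), positive in 20 of 20 alternative settings and past the threshold in 4, with adjusted p from 0.00374 to 0.159. It was 0.65 without the 4 libraries against their titled sex (adjusted p = 0.0694 by edgeR). S1pr4, a related receptor, was at 0.49 (SE 0.12, adjusted p = 0.0531 by edgeR).

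Downstream of the receptors, 25 G protein and effector genes were all tested, and averaged over the sexes 2 fell and 0 rose, with a median of -0.06, beside 1.50% of all genes called in either direction. Cdc42, a small GTPase of cell polarity, had 662, 565 and 624 CPM in KO females and 539, 639 and 473 CPM in KO males, against 851, 786 and 772 CPM in WT females and 867, 851 and 805 CPM in WT males. Its log2 fold change was -0.50 (SE 0.10, adjusted p = 0.0314 by edgeR). In Rap1a, a small GTPase that activates integrins, the level was 114 ± 14.1 CPM in KO and 162 ± 7.41 CPM in WT (SD, n = 6 each), a log2 fold change of -0.51 (SE 0.11, adjusted p = 0.0322 by edgeR). Both were lower in all 6 KO libraries than in any WT library, as were 1.43% of all genes. Without the 4 libraries against their titled sex Cdc42 was -0.64 (adjusted p = 0.0694 by edgeR) and Rap1a -0.60 (adjusted p = 0.0783).

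Of 14 tested genes that dampen chemokine receptor signals, 1 fell and 0 rose averaged over the sexes, with a median of 0.10, beside the same 1.50% of all genes. Rgs1, which shuts off the G proteins and slows migration, stood at 369 ± 62.1 CPM in KO and 633 ± 190.2 CPM in WT (SD, n = 6 each), a log2 fold change of -0.77 (SE 0.18, adjusted p = 0.0497 by edgeR). Of 18 transcription factors tied to these receptors, 1 fell and 0 rose, with a median of -0.13, again beside 1.50%. With lists of this size, a count of 1 is no result about either list. Prdm1, the factor Blimp-1 of effector Tregs and plasma cells, stood at 56.7 ± 9.15 CPM in KO and 97.6 ± 27.7 CPM in WT (SD, n = 6 each), a log2 fold change of -0.78 (SE 0.18, adjusted p = 0.0424 by edgeR). Single libraries overlapped in both genes. Both calls were lost without the 4 libraries against their titled sex, where Rgs1 was -0.96 (adjusted p = 0.0963 by edgeR) and Prdm1 -1.08 (adjusted p = 0.0762).

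All 4 of these genes were negative in 20 of 20 alternative settings. They passed the threshold in 8 settings for Cdc42, 9 for Rap1a, 4 for Rgs1 and 9 for Prdm1. Adjusted p reached 0.101 for Cdc42, 0.104 for Rap1a, 0.147 for Rgs1 and 0.130 for Prdm1. In the separate comparisons within females, within males and between the sexes, and in the interaction, 0 of the genes on these 5 lists were called.

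**Figure D5:**
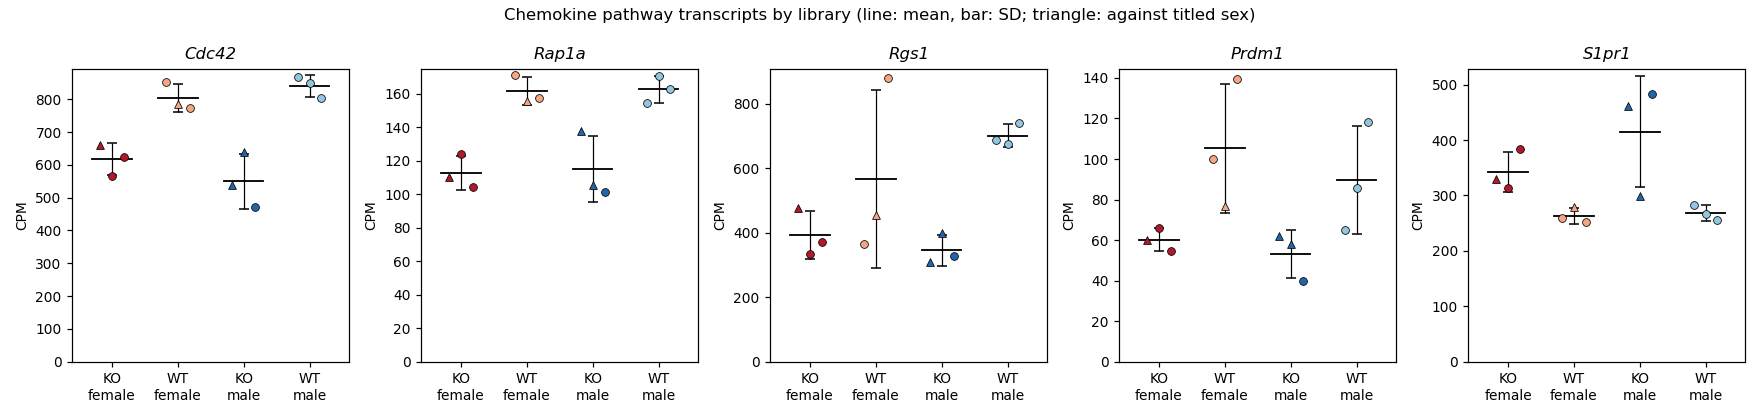
CPM of Cdc42, Rap1a, Rgs1, Prdm1 and S1pr1 in the 12 libraries by labelled group, with mean and SD, and triangles for the 4 libraries against their titled sex. Cdc42 lies between 473 and 662 CPM in KO and between 772 and 867 CPM in WT libraries, and S1pr1 is the gene of the 5 that is higher in KO.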

How the data were processed

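RNA-seq libraries were made with SMART-Seq v4 and Nextera XT, per the labels' protocols, a combination that does not mark the strand. The authors deposited raw counts per gene symbol for 12 libraries and log2 values for 24584 genes. The submitters' processing notes name HISAT2 2.0.5, Subread with featureCounts 1.5.0-p2, edgeR and the build GRCm38, and give neither annotation release nor strand setting. The deposited log2 values matched log2 CPM with TMM scaling and a prior count of 0.25 to within 5e-14.

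Counts were filtered with filterByExpr, scaled by TMM and fitted in 1 edgeR 4.0.16 quasi-likelihood model of 4 group means (R 4.3.3, limma 3.58.1, robust), with two-sided tests adjusted by Benjamini-Hochberg over 13692 genes at 0.05. Titles gave the groups, and libraries are numbered within them; the number 2 occurs on 2 WT male titles. CPM use TMM-scaled library sizes. SE come from the F statistic and 95% intervals from the SE. DESeq2 1.42.0 and other settings served as alternatives. Simulated counts with 100 genes changed 2-fold and 100 changed 4-fold gave 75 and 88 recovered for the average over the sexes, 47 and 83 in females and 50 and 80 in males. Between 1 and 15 unchanged genes were called. The changed genes were drawn only among genes more abundant than Ccr10. Simulated counts took the dispersions of the fit and held no library against its label, so the recovery need not hold for these libraries or for Ccr10.

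The 9 receptors and all lists were chosen with earlier results of these data known. The 9, Esr2, Foxp3, Il2ra and Il7r were always named. On each pathway list up to 6 passing genes per comparison were named by p, or, with none, the 2 with the smallest p on average over the sexes and the 3 most abundant. Other cell types were described by summed CPM and their leading genes, and likeness by the 3 highest Pearson correlations of log2 CPM, leaving out provisional names and antigen receptor segments. A single B-cell marker is not reported here. Igj and 2010001M09Rik were named after their values were seen. Title numbers gave no sign of pairing: 0 of 18 same-number pairs correlated above 0.1, beside 9 of 36 other pairs. These correlations are of deviations from means of 3 libraries, so they cannot exclude a pairing.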

Additional observations from a re-analysis of the deposited data

Results flagged for a closer look

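Cxcr5 in KO female 2 stood apart from the other KO libraries. It had 84.4 CPM, while the other 5 KO libraries lay between 64.1 and 69.8 CPM, and its gap to the nearest of them was 0.718 of the whole range, above Dixon's 95% critical value for 6 samples. This was 1 of 18 groups examined for the 9 receptors, and chance alone gives such a value in about 1 group in 20. The library followed its titled sex.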

How the results depend on the processing

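Of 1080 log2 fold changes of the 9 receptors over 20 alternatives, 0 changed sign while called, 16 newly passed the threshold and 17 no longer passed it. All 17 were the average of Ccr10. The number of receptors called on average over the sexes, 1 in the edgeR result, was 2 with DESeq2, 0 with RLE factors, 3 without the filter, 0 with limma on the deposited log2 values, 2 with voom, 0 without the 4 libraries against their titled sex, 0 with the WT male libraries titled 2 summed, and 0 to 1 without single libraries. In females, with 0 called, it was 3 without the filter and 6 with voom. With the title number as a replicate block 0 receptors and 9 genes were called on average over the sexes, and 0 genes in males.

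The number of all genes called moved more. On average over the sexes, with 206 called, it was 644 with DESeq2, 627 without the filter, 597 with voom, 11 without the 4 libraries against their titled sex and 27 with the WT male libraries summed. Without single libraries it was 12 (KO female 3), 23 (WT male 3), 25 (WT male 2), 25 (WT female 3), 41 (WT female 2), 50 (KO female 1), 57 (WT female 1), 84 (KO male 3) and 551 (KO male 2), and 183 to 242 without each of the others. In males, with 10 called, it was 420 with DESeq2, 443 without the filter, 0 with voom, 28 without the 4 libraries and 0 with the summed pair. Without single libraries it was 0 for each WT male, KO male 1 and KO male 3, 2 for WT female 2, 6 for KO female 3, 49 for WT female 3 and 740 for KO male 2. In females, with 0 called, it was 22 with DESeq2, 132 without the filter, 1698 with voom and 0 to 2 without single libraries. For female minus male in KO, with 0 called, it was 63 without the filter, 5 without the 4 libraries and 0 to 318 without single libraries, the highest without KO male 2. For female minus male in WT, with 0 called, it was 30 with DESeq2, 191 without the filter, 348 with voom, 5 without the 4 libraries, 33 without WT male 3 and 40 without WT female 3, and 0 without each other library. For the interaction, with 0 called, it was 3 with DESeq2, 106 without the filter and 0 to 1 without single libraries. The cause was not tested. Ccr10 had at most 22 counts in a library, and its biological coefficient of variation, 79.3%, was the largest of the 9; depth and spread were not tested apart. Counting intervals cover counting error only.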

Other observations

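Levels of other cell types in the sorted cells were described by summed CPM. The 8 dendritic cell genes, led by Cd74, H2-Ab1 and Zbtb46, summed to 909 ± 347 CPM in KO and 369 ± 209 CPM in WT (SD, n = 6 each). Most of that sum came from Cd74 and H2-Ab1, at 543 and 83.8 CPM on average over the 12 libraries. Zbtb46 ranged from 0.485 to 5.48 CPM in KO and from 0.896 to 7.02 CPM in WT. Averaged over the sexes, 6 of the 7 tested genes of this list were positive and 1 was negative, with 2 called higher. The 8 neutrophil genes, led by Ltf, Ngp and S100a9, summed to 19.3 ± 19.2 CPM in KO and 1.49 ± 0.743 CPM in WT. The 8 genes of CD8 T and NK cells, led by Nkg7, Prf1 and Cd8b1, summed to 172 ± 23.2 CPM in KO and 131 ± 24.3 CPM in WT. The plasmacytoid dendritic cell list was led by Irf8, Bst2 and Ly6d. The 6 Treg genes, led by Il2rb, Il2ra and Foxp3, summed to 4213 ± 510 CPM in KO and 4129 ± 425 CPM in WT. Cd3e, Cd4 and Cd3d summed to 2315 ± 159 CPM in KO and 1855 ± 167 CPM in WT.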
